A study of Mus musculus with 12 samples.

Results

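The genes described here are 10 members of the Nodal and bone morphogenetic protein (BMP) signalling pathways: Nodal, Lefty1, Lefty2, Tdgf1, Eomes, Bmp4, Id1, Id2, Id3 and Smad7. They were taken by gene name from a count table of 32285 genes, and all 10 passed the expression filter together with 12765 genes in all. RNA was measured in mouse embryonic stem cells of the IB10 line, which comes from the 129/Ola strain, in 4 genotypes: wild type, DHX36 knockout, FANCJ knockout and DHX36/FANCJ double knockout. Each genotype had 3 libraries. All cells were grown without treatment on gelatin in medium with serum, leukaemia inhibitory factor and conditioned medium from buffalo rat liver cells. DHX36 and FANCJ (gene Brip1) are helicases that unwind G-quadruplexes, four-stranded folds of guanine-rich DNA or RNA. How many knockout clones were used, and whether the libraries of a genotype were separate cultures, is not given in the sources used here. The p-values below therefore measure the spread between these libraries, which may be technical.

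Nodal is a secreted ligand of the transforming growth factor β family. It signals through activin receptors with the coreceptor CRIPTO, the product of Tdgf1, and activates SMAD2 and SMAD3, which enter the nucleus with SMAD4 and bind DNA beside partners such as FOXH1. Lefty1 and Lefty2 are both targets and secreted inhibitors of this signal, and Nodal also raises its own transcription. BMP4 acts through other receptors on SMAD1 and SMAD5, which switch on the Id genes. ID proteins bind E proteins and keep them from activating differentiation genes, and in serum-free culture BMP with leukaemia inhibitory factor sustains mouse embryonic stem cells. SMAD7 is an inhibitory SMAD induced by both branches.

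Library totals ran from 4284785 to 5792862 counts in wild type. The single knockouts had 6223087 to 10919405 counts without DHX36 and 4936662 to 7900066 without FANCJ, and the double knockout was deepest, at 10915924 to 14721931. Depth and genotype thus partly ran together, and the mitochondrial share of counts was 10.0% to 10.6% in wild type and 11.9% to 13.2% in the double knockout. Thinning all libraries to the shallowest total kept every call of a member against wild type. Levels are given as counts per 1000000 of the scaled library total (CPM) in the order of libraries 1, 2 and 3. The method tags the 3′ end of a transcript, so a level is not divided by gene length, and levels are compared between genotypes and not between genes. In these bulk libraries, fewer cells of a type and less RNA per cell cannot be told apart. RNA of the knocked-out genes followed the labels. Dhx36 had a mean of 54.1 CPM in wild type and 55.6 CPM in the FANCJ knockout, against 10.5 CPM in the DHX36 knockout and 13.9 CPM in the double knockout. Some Dhx36 RNA thus remained. It was higher in the double than in the DHX36 knockout by 0.39 on the log2 scale (quasi-likelihood test of edgeR, adjusted p = 0.0456). Brip1 had 6.87 and 6.93 CPM in wild type and the DHX36 knockout, against 0.338 and 0.414 CPM in the FANCJ and double knockouts.

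Against wild type, the DHX36 knockout had higher RNA for the Nodal ligand, its coreceptor, both Lefty inhibitors, Eomes, Bmp4, Id1 and Id3, and lower RNA for Id2. In the FANCJ knockout the test called 1 member, Lefty2, which was lower. The double knockout kept the higher levels of the Nodal branch and of Bmp4, while Id1 and Id3 did not pass the test against wild type. Genes were called at an adjusted p under 0.05 by the quasi-likelihood test of edgeR with Benjamini-Hochberg adjustment over all genes tested, and log2 fold changes are given with their standard error (SE).

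**Figure D1:**
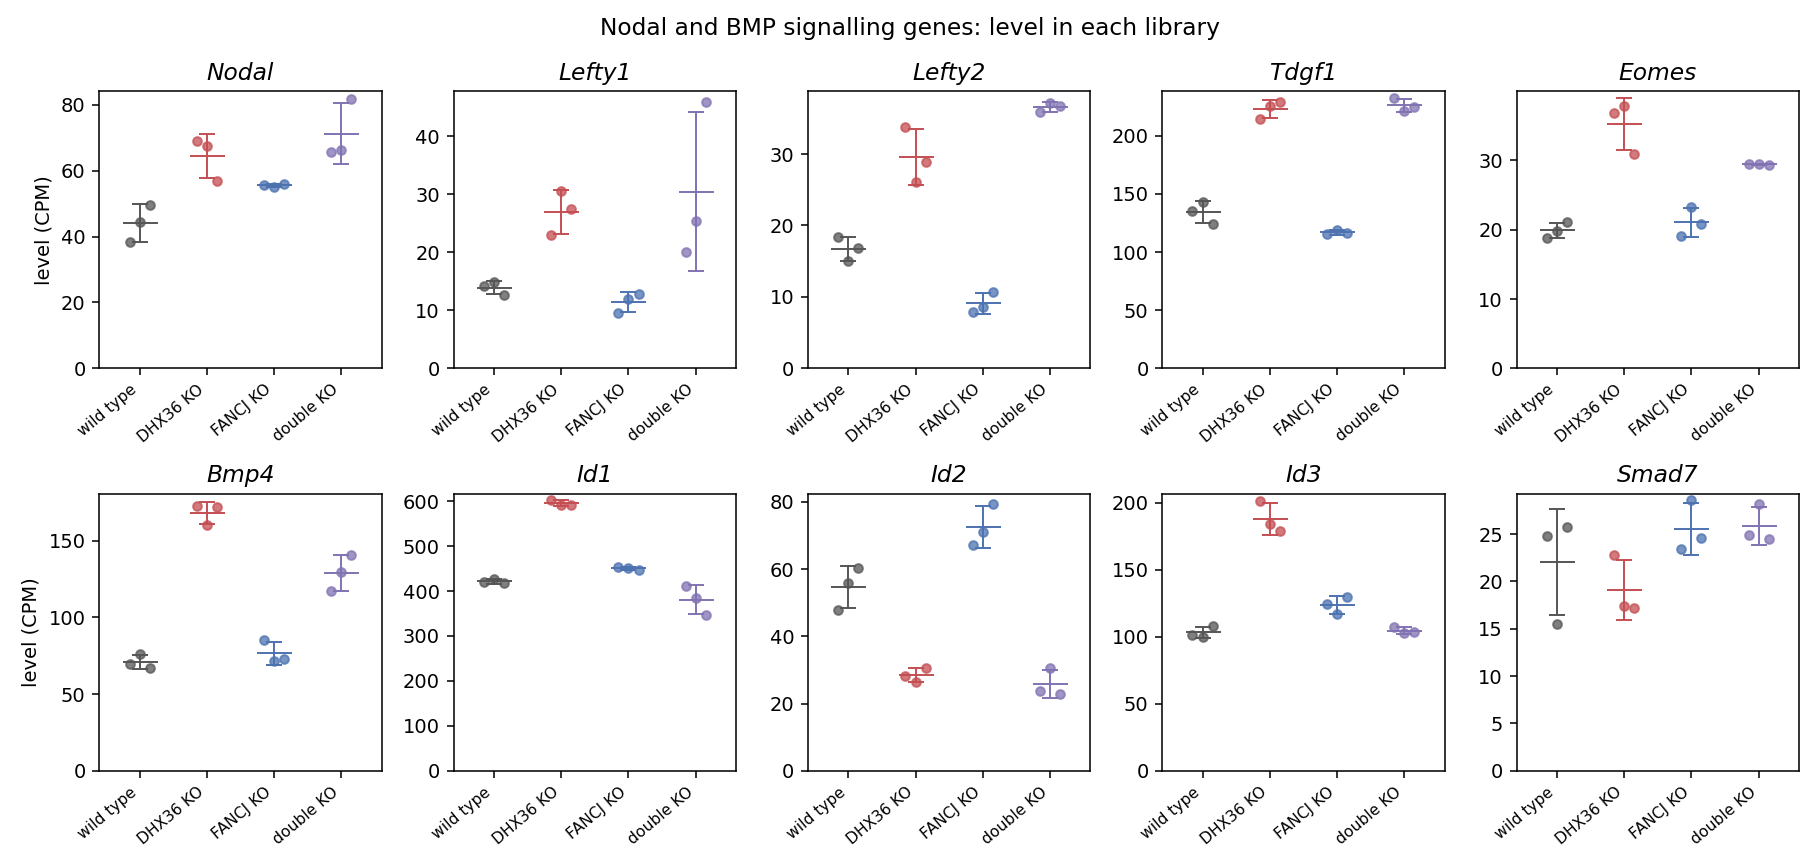
Level of each of the 10 genes in every library, in CPM, by genotype; points are libraries, and the dash with its bar is the mean ± SD of 3. Nodal, Lefty1, Lefty2, Tdgf1, Eomes and Bmp4 were higher in both genotypes without DHX36, Id1 and Id3 were high in the DHX36 knockout and not in the double knockout, and Id2 was low in both genotypes without DHX36.

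Nodal (ENSMUSG00000037171, GRCm38 chr10:61417972-61425338, + strand) encodes the ligand. Its annotated 5′ UTR holds 1 stretch of the G-quadruplex form, 4 runs of at least 3 G joined by 1 to 7 bases. This stretch is shown because the knocked-out helicases act on such folds, with the G runs in capitals, at positions 248 to 264 of the 5′ UTR (GRCm38 chr10:61418219-61418235, + strand).
Nodal 5′ UTR: GGGaGGGaGGGaaaGGG
Of 12053 tested genes with an annotated 5′ UTR, 8.34% held such a stretch, so this is a match of letters and not a measured fold.

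Nodal stood at 38.3, 44.4 and 49.7 CPM in wild type and at 69.0, 67.6 and 56.9 CPM in the DHX36 knockout. The double knockout gave 65.6, 66.3 and 81.9 CPM, and the FANCJ knockout 55.7, 55.2 and 55.9 CPM. All libraries of the 3 mutant genotypes lay above the highest wild-type library. The log2 fold change was 0.55 (SE 0.12, adjusted p = 0.00154) in the DHX36 knockout and 0.69 (SE 0.11, adjusted p = 7.29e-05) in the double knockout. In the FANCJ knockout it was 0.33 (SE 0.12, adjusted p = 0.17) and was not called.

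Tdgf1 (ENSMUSG00000032494, GRCm38 chr9:110939603-110946158, - strand) encodes CRIPTO, a coreceptor of Nodal. It was measured with small spread. Its level was 135.1, 143.2 and 124.4 CPM in wild type and 116, 119 and 116 CPM in the FANCJ knockout. In the DHX36 knockout it was 214, 226 and 229 CPM, and in the double knockout 232, 222 and 225 CPM. The libraries without DHX36 formed a separate high group, and the FANCJ knockout libraries all lay below wild type. The log2 fold change was 0.73 (SE 0.08, adjusted p = 6.8e-07) in the DHX36 knockout and 0.75 (SE 0.08, adjusted p = 2.01e-07) in the double knockout. The FANCJ knockout value of -0.20 (SE 0.08, adjusted p = 0.24) did not pass.

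The 250 bases before the RefSeq start of Tdgf1 (GRCm38.p6 chr9:110946159-110946408, - strand) are shown because this gene moved beside the Nodal targets. Capitals mark GTCT, the core letters of a SMAD-binding element, and TGTNNATT, a loose form of the FOXH1 site, read on both strands.
Tdgf1 promoter: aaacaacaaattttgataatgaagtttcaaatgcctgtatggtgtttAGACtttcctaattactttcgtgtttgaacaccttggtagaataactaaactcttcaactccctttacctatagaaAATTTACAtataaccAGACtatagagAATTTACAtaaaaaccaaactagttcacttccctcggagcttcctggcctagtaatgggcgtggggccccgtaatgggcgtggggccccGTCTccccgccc
The window held TGTNNATT 2 times, at -127 to -120 and -101 to -94 from the start, with a GTCT match between them at -112 to -109. Among 32851 promoters of this length, 10.9% held TGTNNATT and 82.9% held GTCT, so a match to the latter is common. No overlap occurred between these matches, and binding was not measured. Among the members with a RefSeq promoter, only Tdgf1 held TGTNNATT. The window of Nodal held neither motif. GTCT occurred 1 time in each of the windows of Eomes, Bmp4 and Id2 and 2 times in that of Id3. Of these genes only Id2 fell in the DHX36 knockout. Annotated exons covered 161 bases of the Id2 window and all 250 of the Id3 window. Lefty1, Lefty2, Id1 and Smad7 had no RefSeq promoter here. Whether the matches bear on the changes was not tested.

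Lefty1 (ENSMUSG00000038793, GRCm38 chr1:180935022-180938400, + strand) and Lefty2 (ENSMUSG00000066652, GRCm38 chr1:180893108-180899103, + strand) lie close together and encode near relatives. Of the 50-base words in the last 600 bases of the Lefty1 transcript, 9.07% also occurred in Lefty2, so a small part of the tags could be assigned to either gene. Lefty1 stood at 14.2, 14.8 and 12.6 CPM in wild type and at 9.54, 11.97 and 12.8 CPM in the FANCJ knockout. The DHX36 knockout gave 22.9, 30.5 and 27.4 CPM, and the double knockout 19.95, 25.4 and 45.9 CPM. Every library without DHX36 was above every library with it, and library 3 of the double knockout stood far above the other two. The log2 fold change of Lefty1 was 0.94 (SE 0.24, adjusted p = 0.00676) in the DHX36 knockout and 1.11 (SE 0.24, adjusted p = 0.000915) in the double knockout. Without library 3 of the double knockout the second value was 0.70 and still passed (adjusted p = 0.00355). The FANCJ knockout value was -0.30 (SE 0.27, adjusted p = 0.659).

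Lefty2 was the 1 member called in both single knockouts, and its direction was opposite in them. It stood at 18.4, 15.03 and 16.9 CPM in wild type and at 7.86, 8.64 and 10.7 CPM in the FANCJ knockout. The DHX36 knockout gave 33.8, 26.1 and 28.8 CPM, and the double knockout 35.8, 37.2 and 36.8 CPM. The 4 genotypes did not overlap: the FANCJ knockout was lowest, then wild type, the DHX36 knockout and the double knockout. In log2 units Lefty2 fell by 0.90 in the FANCJ knockout (SE 0.16, adjusted p = 0.00403). It rose by 0.83 in the DHX36 knockout (SE 0.14, adjusted p = 0.000111) and by 1.13 in the double knockout (SE 0.13, adjusted p = 8.83e-07). The step from the DHX36 knockout to the double knockout, 0.30, did not pass (adjusted p = 0.0716).

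Eomes (ENSMUSG00000032446, GRCm38 chr9:118478212-118486132, + strand) encodes a T-box factor of mesendoderm that Nodal induces. Its level was 18.8, 19.8 and 21.1 CPM in wild type and 19.1, 23.3 and 20.8 CPM in the FANCJ knockout. The DHX36 knockout gave 36.8, 37.9 and 31.0 CPM, and the double knockout 29.4, 29.5 and 29.4 CPM. Wild type and the FANCJ knockout overlapped, and all libraries without DHX36 lay above both. Eomes rose by 0.82 in the DHX36 knockout (SE 0.12, adjusted p = 3.98e-05) and by 0.57 in the double knockout (SE 0.12, adjusted p = 0.00104). The FANCJ knockout value was 0.08 (SE 0.13, adjusted p = 0.829).

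Bmp4 (ENSMUSG00000021835, GRCm38 chr14:46383520-46390669, - strand) had the largest rise of the 10 genes in the DHX36 knockout. Its annotated 5′ UTR also holds 1 stretch of the G-quadruplex form, at positions 7 to 30 (GRCm38 chr14:46390640-46390663, - strand), shown for the same reason with G runs in capitals.
Bmp4 5′ UTR: GGGaagaaGGGaGGGGccgctGGG
Smad7 held 1 such stretch in its 5′ UTR as well, so 3 of the 10 members had one: Nodal and Bmp4, called in the genotypes without DHX36, and Smad7, not called against wild type. No member had one in its coding sequence or 3′ UTR, where 4.21% of 12248 and 11.6% of 12128 tested genes had one.

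The level of Bmp4 was 69.5, 75.8 and 67.2 CPM in wild type and 85.1, 71.5 and 72.8 CPM in the FANCJ knockout. It was 172, 160 and 172 CPM in the DHX36 knockout and 117, 130 and 141 CPM in the double knockout. The double knockout thus lay between wild type and the DHX36 knockout, with no overlap with either. Bmp4 rose by 1.24 in the DHX36 knockout (SE 0.10, adjusted p = 6.64e-09) and by 0.86 in the double knockout (SE 0.10, adjusted p = 4.21e-07), while FANCJ loss alone gave 0.11 (SE 0.10, adjusted p = 0.658). The double knockout was lower than the DHX36 knockout by 0.38, with a fitted value of -0.38 (SE 0.09, adjusted p = 0.00397).

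Id1 (ENSMUSG00000042745, GRCm38 chr2:152736251-152737410, + strand) and Id3 (ENSMUSG00000007872, GRCm38 chr4:136143497-136145755, + strand) are direct targets of BMP-activated SMADs. Id1 stood at 419, 428 and 419 CPM in wild type and at 453, 452 and 447 CPM in the FANCJ knockout. The DHX36 knockout gave 603, 591 and 591 CPM, and the double knockout 410.5, 385 and 347 CPM. Only the DHX36 knockout was far above the rest, and the double knockout lay below every wild-type library. The log2 fold change was 0.50 in the DHX36 knockout (SE 0.08, adjusted p = 4.85e-05) and -0.15 in the double knockout (SE 0.08, 95% interval -0.30 to 0.00, adjusted p = 0.142). In the FANCJ knockout Id1 was at 0.10 (SE 0.08, adjusted p = 0.608).

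Id3 also stood highest in the DHX36 knockout, by a wider step. Its level was 101, 100.1 and 108 CPM in wild type and 124, 117 and 130.0 CPM in the FANCJ knockout. It was 201, 184 and 179 CPM in the DHX36 knockout and 107, 103 and 103 CPM in the double knockout. The double knockout libraries fell within the wild-type range, while the FANCJ knockout lay just above it. Id3 rose by 0.87 in the DHX36 knockout (SE 0.08, adjusted p = 1.27e-07), and the double knockout differed from wild type by 0.02 (95% interval -0.14 to 0.18, adjusted p = 0.883). FANCJ loss alone gave 0.26 for Id3 (SE 0.08, adjusted p = 0.123). Between the double and the DHX36 knockout, Id3 fell by 0.85 (SE 0.08, adjusted p = 1.63e-07) and Id1 fell by 0.64 (SE 0.08, adjusted p = 2.7e-06).

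Id2 (ENSMUSG00000020644, GRCm38 chr12:25093799-25097140, - strand), the third family member, went the other way. It stood at 47.8, 55.9 and 60.2 CPM in wild type and at 67.3, 70.9 and 79.4 CPM in the FANCJ knockout. The DHX36 knockout gave 28.2, 26.4 and 30.5 CPM, and the double knockout 23.7, 30.6 and 23.0 CPM. The genotypes without DHX36 overlapped each other and lay below wild type, and the FANCJ knockout lay above it. Id2 fell by 0.94 in the DHX36 knockout (SE 0.13, adjusted p = 9.74e-06) and by 1.08 in the double knockout (SE 0.12, adjusted p = 5.65e-07). Its value in the FANCJ knockout, 0.40 (SE 0.12), did not pass (adjusted p = 0.088), but it did when no expression filter was used (adjusted p = 0.0262) and when libraries were thinned (adjusted p = 0.0497). In the other 10 of 12 alternatives it stayed uncalled. These were DESeq2 (adjusted p = 0.0715) and leaving out any 1 wild-type or FANCJ knockout library (adjusted p up to 0.274), among others.

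Smad7 (ENSMUSG00000025880) was not called against wild type in any mutant. Its level was 24.8, 15.6 and 25.8 CPM in wild type, 22.8, 17.4 and 17.2 CPM in the DHX36 knockout, 23.5, 28.6 and 24.6 CPM in the FANCJ knockout, and 25.0, 28.2 and 24.5 CPM in the double knockout. All mutant genotypes overlapped wild type, whose library 2 was its lowest. The value in the DHX36 knockout was -0.18 with a 95% interval of -0.51 to 0.15 (adjusted p = 0.465), which does not show that the levels were equal. In the FANCJ knockout it was 0.23 (adjusted p = 0.554) and in the double knockout 0.25 (adjusted p = 0.243). Smad7 was 0.43 higher in the double than in the DHX36 knockout (adjusted p = 0.0472). That call was lost without any of libraries 2 and 3 of the DHX36 knockout or libraries 1, 2 and 3 of the double knockout, with values of 0.38, 0.35, 0.46, 0.37 and 0.48 in that order (adjusted p up to 0.181). It was also lost after thinning (adjusted p = 0.0806) and under DESeq2 (adjusted p = 0.0672), in all in 8 of 12 alternatives.

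**Figure D2:**
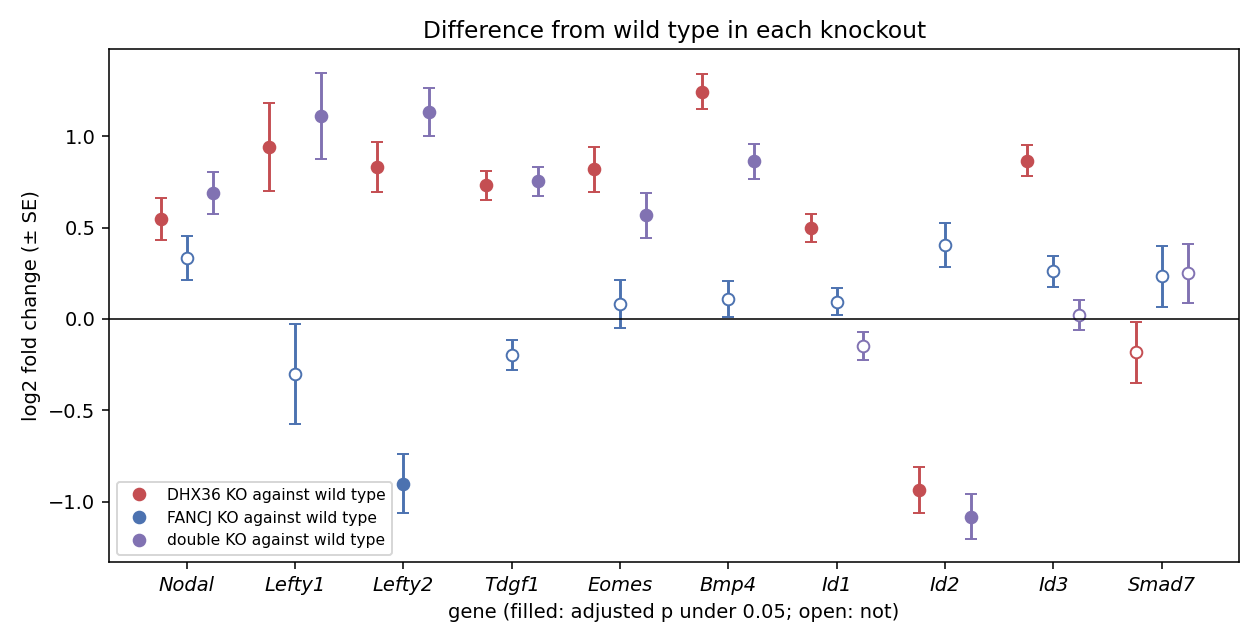
Log2 fold change of each gene against wild type in the 3 mutant genotypes, with bars for ± SE, filled points for called genes and open points for the others. The DHX36 knockout holds 9 filled points, the double knockout 7 and the FANCJ knockout 1.

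Counted over the list, 9 of 10 members were called in the DHX36 knockout, 8 up and 1 down, where 12.8% of all tested genes were called up and 11.6% down. In the double knockout 7 were called, 6 up and 1 down, against 16.6% up and 17.3% down among all genes. In the FANCJ knockout none was called up and 1 was called down, where 1.45% of genes were up and 0.619% down. At an unadjusted p under 0.05, 5 members passed in the FANCJ knockout, as did 1910 genes in all (15% of those tested). The median log2 fold change of the members was 0.77 in the DHX36 knockout, 0.63 in the double knockout and 0.10 in the FANCJ knockout, while that of all genes was 0.00454, 0.00631 and -0.00264 in the same order. The 3 libraries of a mutant and of wild type did not overlap for 9 members in the DHX36 knockout, where this held for 37.6% of genes. It held for 8 members in the double knockout (45.2% of genes) and for 6 in the FANCJ knockout (18.7% of genes). The 3 comparisons share the wild-type libraries and are not independent of each other. The members were chosen with earlier results of these data known. The shares of members here and below therefore describe the list and do not test it against other genes.

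The double knockout was also set against each single knockout. Adding the FANCJ knockout to the DHX36 knockout called 4 members: Bmp4, Id1 and Id3 down, and Smad7 up. Among all genes 8.28% were called up and 11.4% down in this comparison. Nodal, Tdgf1, Lefty1, Lefty2, Eomes and Id2 were not called. For Tdgf1 the difference was 0.02 with a 95% interval of -0.13 to 0.17.

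Adding the DHX36 knockout to the FANCJ knockout called 9 members, 6 up and 3 down, where 18.3% of genes were called up and 18.5% down. Lefty2 rose by 2.03 (SE 0.14, adjusted p = 2.08e-10) and Lefty1 by 1.41 (adjusted p = 5.07e-05). Tdgf1 rose by 0.95, Bmp4 by 0.75, Eomes by 0.48 and Nodal by 0.36. Id2 fell by 1.49 (adjusted p = 2.34e-09), and Id1 and Id3 each fell by 0.24 (adjusted p = 0.0152 and 0.0233). The calls of Nodal and Id1 were lost without library 3 of the double knockout, at 0.24 (adjusted p = 0.105) and -0.18 (adjusted p = 0.0811). The call of Id3 was lost without library 1 or 3 of the FANCJ knockout or library 2 or 3 of the double knockout, with values of -0.24, -0.21, -0.23 and -0.24 (adjusted p up to 0.0905), and also with no expression filter (adjusted p = 0.0693).

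Whether FANCJ loss had a different effect in cells with and without DHX36 was tested by the interaction, the log2 fold change of the double over the DHX36 knockout minus that of the FANCJ knockout over wild type. The test called 5 members, 1 positive and 4 negative, where 2.73% of genes had a positive and 6.06% a negative call. Lefty2 had a positive term of 1.20 (SE 0.20, adjusted p = 0.000398): FANCJ loss lowered it in cells with DHX36, and was not called in cells without DHX36. The terms of Id3 (-1.11, SE 0.12, adjusted p = 1.58e-06) and Id1 (-0.74, SE 0.11, adjusted p = 0.000107) were negative. Both Id genes were lower after FANCJ loss in the DHX36 knockout, and not called after FANCJ loss in wild type.

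The other called terms were those of Bmp4 (-0.49, SE 0.13, adjusted p = 0.0225) and Id2 (-0.55, SE 0.17, adjusted p = 0.0489). The Bmp4 call was lost without wild-type library 1 or 3, FANCJ knockout library 1 or double knockout library 1, with values of -0.48, -0.45, -0.41 and -0.42 (adjusted p up to 0.0877). The Id2 call was lost without any 1 library other than wild-type library 3 and double knockout library 2, with adjusted p up to 0.127 and a value of -0.46 without wild-type library 1, where p was highest. Nodal (-0.19), Tdgf1 (0.22), Lefty1 (0.47), Eomes (-0.34) and Smad7 (0.20) were not called. The Lefty1 term was 0.06 without library 3 of the double knockout and 0.71 without library 1. The 95% interval of the term was -0.50 to 0.13 for the Nodal ligand and 0.00 to 0.44 for its coreceptor gene Tdgf1, and neither term passed the adjusted threshold.

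**Figure D3:**
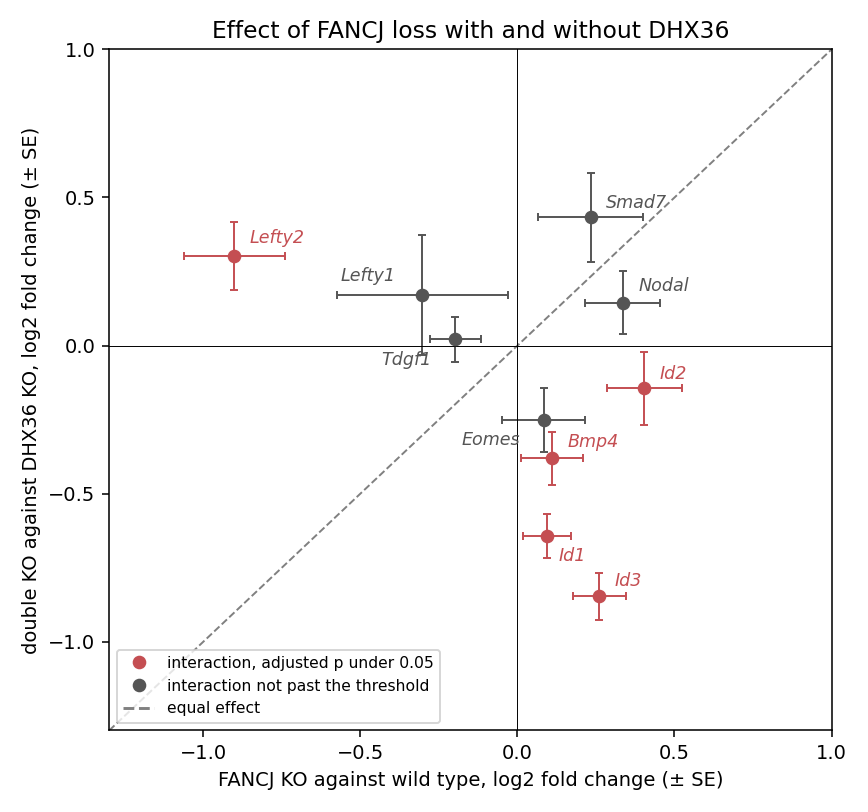
Log2 fold change of each gene after FANCJ loss in cells with DHX36 (horizontal) and without it (vertical), with bars for ± SE; red marks a called interaction and the dashed line equal effects. The interaction is the vertical distance from that line: Lefty2 lies 1.20 above it, and Id3, Id1, Id2 and Bmp4 lie below.

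The relation of targets to ligand within a library was set out as ratios of CPM, a description chosen after the data were seen. Id3 per Bmp4 was 1.32 to 1.61 in wild type, 1.46 to 1.79 in the FANCJ knockout, 1.04 to 1.17 in the DHX36 knockout and 0.735 to 0.916 in the double knockout. Id1 per Bmp4 was 5.64 to 6.23 in wild type, 5.32 to 6.31 in the FANCJ knockout, 3.44 to 3.69 in the DHX36 knockout and 2.47 to 3.50 in the double knockout. Both Id genes were thus lowest relative to Bmp4 in the genotypes without DHX36, where Bmp4 was high. In the DHX36 knockout both Id genes rose, but by less than Bmp4, so these ratios restate the levels given above. Id3 per Id2 was 1.79 to 2.12 in wild type, 1.64 to 1.85 in the FANCJ knockout, 5.85 to 7.13 in the DHX36 knockout and 3.35 to 4.52 in the double knockout. Lefty2 per Nodal was 0.339 to 0.480 in wild type, 0.386 to 0.507 in the DHX36 knockout and 0.449 to 0.561 in the double knockout, against 0.141 to 0.192 in the FANCJ knockout. The FANCJ knockout thus had the least Lefty2 RNA for its Nodal RNA, with no overlap with the other genotypes.

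Other genes of the 2 pathways, 61 listed and 48 tested, moved in mixed directions. In the DHX36 knockout 8 rose and 3 fell (16.7% and 6.25%, against 12.8% and 11.6% of all genes), with a median of 0.08. After loss of both helicases 10 rose and 9 fell (20.8% and 18.8%, against 16.6% and 17.3% of all genes), with a median of 0.07. After FANCJ loss alone none rose and 1 fell, where 1.45% and 0.619% of all genes did. These shares lie near those of all genes, so the counts do not set the pathway genes apart. On the Nodal side, 4 of 22 tested genes rose and 1 fell in the DHX36 knockout, and 6 rose and 4 fell in the double knockout. On the BMP side, 4 of 24 rose and 2 fell in the DHX36 knockout, and 4 rose and 5 fell in the double knockout. None of the 3 E-protein genes, Tcf3, Tcf4 and Tcf12, was called against wild type in any mutant.

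Smad3, an effector of the Nodal branch, stood at 21.9, 20.3 and 18.7 CPM in wild type and at 37.7, 35.7 and 36.4 CPM in the DHX36 knockout. The FANCJ knockout gave 28.1, 25.4 and 27.2 CPM and the double knockout 27.7, 29.8 and 29.1 CPM. All mutant libraries lay above wild type, and the DHX36 knockout lay highest. Smad3 rose by 0.85 in the DHX36 knockout (SE 0.11, adjusted p = 8.79e-06) and by 0.50 in the double knockout (adjusted p = 0.00134).

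T, the gene of the mesoderm factor Brachyury, was at most 24.6 CPM in any library. It stood at 8.86, 10.8 and 11.01 CPM in wild type and at 18.1, 24.6 and 21.5 CPM in the DHX36 knockout. The FANCJ knockout gave 1.68, 1.99 and 2.89 CPM and the double knockout 4.13, 3.83 and 4.99 CPM. No genotype overlapped another. T rose by 1.06 in the DHX36 knockout (SE 0.17, adjusted p = 0.000104) and fell by 2.28 in the FANCJ knockout (SE 0.25, adjusted p = 9.08e-06) and by 1.25 in the double knockout (SE 0.20, adjusted p = 3.96e-05). In the double knockout T was thus below wild type, whereas Eomes was above it. The interaction term of T was -0.03 (adjusted p = 0.994).

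Among ligands, Gdf3, which encodes a partner of Nodal, rose by 0.46 in the DHX36 knockout and by 0.31 in the double knockout. Inhbb, an activin subunit gene, rose by 0.57 and 0.99. Inhba, the gene of another activin subunit, fell by 2.37 in the double knockout. Its level was low, at 3.75 to 5.09 CPM in wild type and 0.534 to 1.36 CPM in the double knockout. The double knockout libraries held 9, 17 and 6 counts of it. In the double knockout Bmp2 fell by 1.89 and Bmp6 by 1.37, Bmp8b fell by 1.57 after a fall of 0.84 in the DHX36 knockout, and Bmp8a rose by 1.14. Of the convertase genes, Furin fell by 0.35 in the DHX36 knockout and by 0.49 in the double knockout, and Pcsk6 rose by 0.73 in the latter.

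The BMP receptor genes Bmpr1a and Acvr1 rose by 0.38 and 0.30 in the DHX36 knockout and by 0.48 and 0.27 in the double knockout. Rgmb, a BMP coreceptor gene, fell by 0.65 and 0.99, and Smurf2, whose product marks SMADs and receptors for degradation, rose by 0.50 and 0.40. In the double knockout Smad2 rose by 0.44, and the SMAD corepressor gene Ski rose by 0.36. Msx1, a BMP target, rose by 1.02 in the DHX36 knockout.

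Nog encodes noggin, a secreted BMP trap. It stood at 7.97, 7.78 and 6.09 CPM in wild type, 5.23, 5.37 and 5.08 CPM in the DHX36 knockout, 7.99, 7.85 and 8.67 CPM in the FANCJ knockout, and 1.56, 2.47 and 2.23 CPM in the double knockout. The double knockout was far below the other genotypes. Nog fell by 1.82 in the double knockout (SE 0.23, adjusted p = 2.53e-06), and the DHX36 knockout value of -0.49 did not pass (adjusted p = 0.103). The interaction called 5 of these 48 genes, all negative (10.4%, against 6.06% negative and 2.73% positive calls among all genes), and they are named here after their values were seen: Nog (-1.48), Bmp2 (-1.83), Inhba (-1.72), Msx2 (-1.13) and Smad3 (-0.75).

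**Figure D4:**
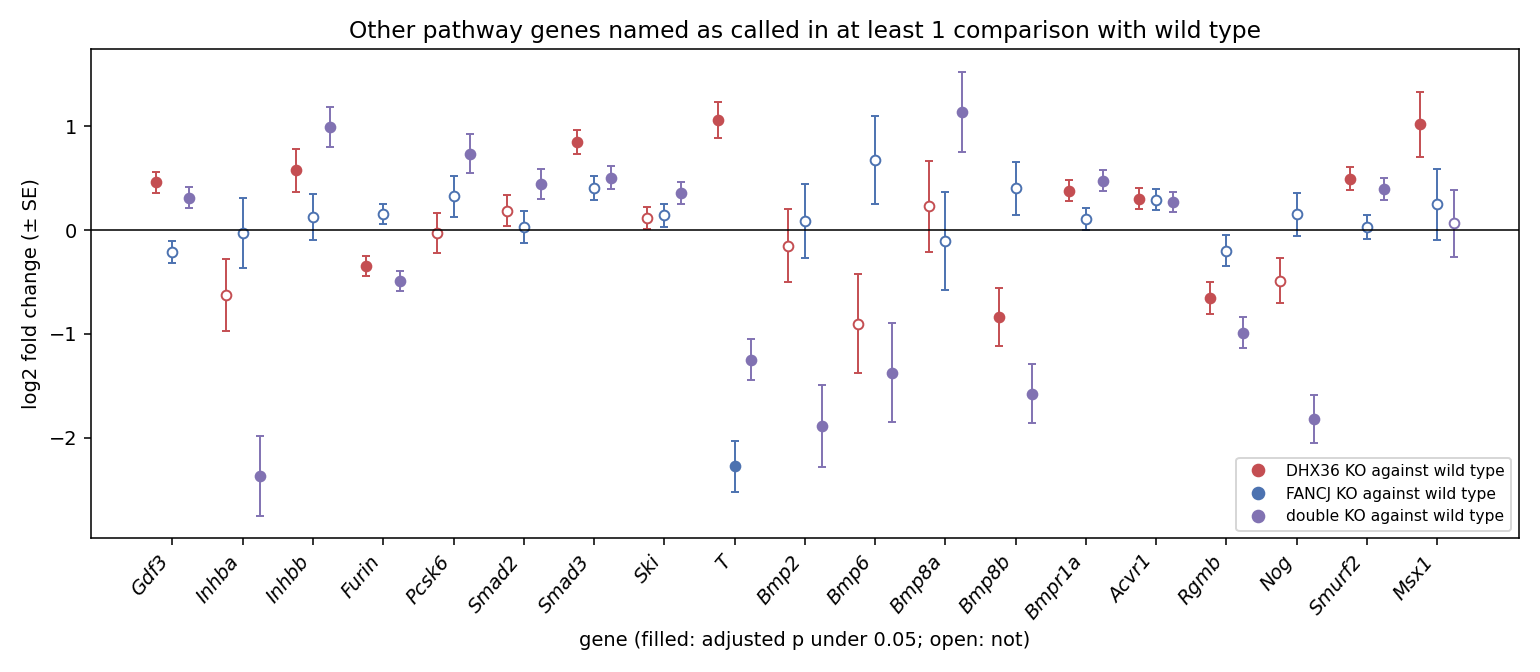
Log2 fold change against wild type for the pathway genes named above as called in at least 1 mutant genotype, with bars for ± SE, filled points for calls and open points for the rest. T moves in both directions, and Nog, Bmp2 and Inhba are low in the double knockout.

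Some of these smaller calls did not hold in every alternative. In the DHX36 knockout, Inhbb was lost without wild-type library 2 or 3 or DHX36 knockout library 1 or 3, Acvr1 without wild-type library 1 or 3 or DHX36 knockout library 1 or 3, and Bmp8b without wild-type library 2 or DHX36 knockout library 1 or 3. Msx1 was lost without wild-type library 2 or 3 or DHX36 knockout library 1, and Furin without wild-type library 3. Inhbb was lost in 9 of 12 alternatives in all, among them no filter, thinning (adjusted p = 0.269), the 2 genotypes alone and DESeq2, Bmp8b also after thinning and under DESeq2, and Acvr1 also with no filter. With a library left out, the adjusted p reached 0.209 for Inhbb, 0.113 for Acvr1, 0.198 for Bmp8b, 0.115 for Msx1 and 0.0650 for Furin. In the double knockout, Acvr1 was lost without wild-type library 1 or 3 or double knockout library 1 or 2, Bmp6 without wild-type library 2 or 3 or double knockout library 1 or 2, and Bmp8a without wild-type library 1 or 3 or double knockout library 1. Smad2 was lost without wild-type library 1 or 2 or double knockout library 1, Ski without wild-type library 1 or double knockout library 1, and Gdf3 without wild-type library 3 or double knockout library 3. The adjusted p reached 0.153, 0.217, 0.141, 0.106, 0.102 and 0.156 in that order. Acvr1 was also lost there with no filter, after thinning and with the 2 genotypes alone (7 of 12 alternatives in all), Bmp6 after thinning and Bmp8a under DESeq2. The interaction terms of Bmp2 and Inhba were lost in 7 and 8 of 17 alternatives, with adjusted p up to 0.0745 and 0.103. Other calls against wild type named here, those of Gdf3 in the DHX36 knockout, of Furin, Inhbb and Bmp8b in the double knockout, and of Smad3, T, Bmpr1a, Rgmb, Smurf2, Nog, Inhba, Bmp2 and Pcsk6, held in all alternatives run, as did the interaction terms of Nog, Smad3 and Msx2.

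Likeness of pattern was measured as Pearson's r of log2 CPM over the 12 libraries, among the 5700 tested genes that averaged 20 CPM or more. The libraries fall in 4 genotypes of 3, so these values follow differences between genotypes as well as single libraries. The genes most like Lefty1 were Rfc5 (r = 0.94), Akap1 (0.94), Ppdpf (0.93), Pdp2 (0.93) and Plekhg5 (0.93). Each of them, like Lefty1, was highest in library 3 of the double knockout, at 103 CPM for Rfc5 and 52.4 CPM for Akap1. That library thus had a part in the ranking, and Pdp2 was not called against wild type in any mutant. Among the members, Tdgf1 ranked 25 (r = 0.90), Lefty2 ranked 113 (r = 0.86), Nodal ranked 529 (r = 0.71) and Id2 was near the bottom at rank 5637 (r = -0.89). The genes most like Id1 were Snrpg (0.96), Hnrnpf (0.96), Lsm8 (0.95), Hmgn3 (0.95) and Dera (0.95). Id3 ranked 7 for Id1 (r = 0.94), while Bmp4 ranked 660 (r = 0.48) and Id2 had r = -0.13.

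Markers of embryonic stem cells and of other cell types were read beside these results. All 7 stem cell markers passed the filter, with a summed level of 4222 to 4307 CPM in wild type and 5636 to 5713 in the double knockout. It was 4639 to 4864 CPM after DHX36 loss alone and 3757 to 3983 CPM after FANCJ loss alone. The single markers moved less evenly than these sums. Only Sox2 was called in the DHX36 knockout, up by 0.28, and no stem cell marker was called in the FANCJ knockout. In the double knockout 5 of the 7 were called up, where 16.6% of all genes were, and Pou5f1 and Zfp42 were not called. Mesendoderm markers, of which 4 of 7 were tested, summed to 44.2 to 57.5 CPM in wild type and 54.8 to 66.6 in the double knockout. After DHX36 loss alone they summed to 104 to 119.5 CPM, and after FANCJ loss alone to 50.3 to 70.8 CPM. Most of that sum was Hand1 (31.4 to 45.2 CPM in wild type and 73.4 to 97.6 CPM in the DHX36 knockout), with T as given above. Gsc and Mesp1 were at most 0.444 and 0.277 CPM in any library. Primitive endoderm markers summed to 45.2 to 57.1 CPM in wild type and 91.3 to 104.5 CPM in the FANCJ knockout, where Lefty2 and T fell, and to 64.2 to 70.3 CPM in the double knockout, where Lefty2 rose. In the DHX36 knockout their sum, 50.9 to 53.4 CPM, lay within the wild-type range. Sox17 and Gata6 of this list rose in all 3 mutants. The rise of Sox17 was 2.10 after DHX36 loss, 2.42 after FANCJ loss and 1.964 after loss of both, and that of Gata6 was 1.12, 1.40 and 1.83. Other markers of the list differed. In the DHX36 knockout Lama1 fell by 0.65, and Gata4, Sox7, Dab2 and Foxq1 had negative values that were not called. Lama1 and Dab2 rose in the FANCJ knockout. In the double knockout Pdgfra rose, and Sox7 and Foxq1 had negative values that were not called. Of 5 neuroectoderm markers tested, Sox1, Pax6, Nes and Map2 fell in both genotypes without DHX36, and Tubb3 rose in the DHX36 knockout. The neuroectoderm sum was 158 to 166 CPM in wild type, 177 to 182 CPM after DHX36 loss alone, 160 to 168 CPM after FANCJ loss alone and 128 to 142 CPM after loss of both. Trophoblast markers summed to 131 to 148 CPM in wild type, 130.5 to 153 CPM after DHX36 loss alone, 165 to 197 CPM after FANCJ loss alone and 124 to 137 CPM after loss of both, and Krt7 among them fell by 1.79 in each genotype without DHX36. Hand1, counted in this sum as well as in the mesendoderm sum, rose by 1.25 in the DHX36 knockout and by 0.54 in the double knockout. Gata3 fell by 1.05 in the DHX36 knockout. In the double knockout Tfap2c rose by 0.41 and Cdx2 fell by 2.24. Krt7 and Hand1 both rose in the FANCJ knockout. Fibroblast markers, mostly Acta2, summed to 401 to 481 CPM in wild type and 71.6 to 83.2 in the double knockout. Their sum was 236 to 252 CPM after DHX36 loss alone and 596 to 616 CPM after FANCJ loss alone. Acta2 and Col1a1 carried the fall, while Thy1 of the same list rose by 1.91 in the DHX36 knockout and by 1.61 in the double knockout. Markers of the 2-cell-like state summed to 29.3 to 38.4 CPM in wild type and 96.7 to 99.1 CPM in the DHX36 knockout, with 48.8 to 63.1 CPM after FANCJ loss alone and 61.2 to 66.4 CPM after loss of both. The part of these shifts in the results was not tested.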

How the data were processed

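Untreated IB10 cells of 4 genotypes, 3 libraries each, were profiled with a 3′-tag RNA-seq method similar to CEL-Seq2, per the labels' protocols. The authors deposited raw counts per gene; whether they are reads or molecules, and the strand used, is not given in the sources used here. The submitters' processing notes name BWA, GRCm38 and hg38. Counts of 92 spike-ins were left out. From the counts, edgeR 4.0.16 (R 4.3.3) fitted all 12 libraries with genotype as the only term, TMM scaling, its expression filter and the quasi-likelihood test, with Benjamini-Hochberg adjustment over 12765 genes. The SE is the log2 fold change divided by the root of F, and 95% intervals are 1.96 SE each way. Such an interval can leave out 0 where the test does not pass. The code was tested on simulated data.

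Replicate libraries differed by 4.11 to 12.3 times the chi-square per degree of freedom of counting alone, so none was a copy of another's counts. Separate cultures cannot be told from technical libraries by this value. The members and lists were chosen with earlier results of these data known. Named were the members, up to 6 called genes per pathway list against wild type, Dhx36, Brip1 and the 5 genes most like Lefty1 and Id1 (1 called pathway gene is counted but not reported by name here), using log2 CPM with a prior count of 2. Stretches in UTRs were read from GRCm38, and promoters from RefSeq (GRCm38.p6), where 6 of 10 members matched. Opposite-strand genes at Eomes and Bmp4 had at most 7 counts.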

Additional observations from a re-analysis of the deposited data

Results flagged for a closer look

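For 5 of the 10 genes the effect of FANCJ loss differed between cells with and without DHX36 by the interaction test of edgeR. Among all tested genes 2.73% had a positive and 6.06% a negative call, and the share of members describes the list only. The interaction term on the log2 scale was 1.20 for Lefty2 (adjusted p = 0.000398), -1.11 for Id3 (adjusted p = 1.58e-06), -0.74 for Id1 (adjusted p = 0.000107), -0.49 for Bmp4 (adjusted p = 0.0225) and -0.55 for Id2 (adjusted p = 0.0489). The terms of Lefty2, Id1 and Id3 passed in all 17 alternatives, that of Bmp4 failed in 4 and that of Id2 in 10. Groups of 3 libraries are too small for a test of single libraries.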

How the results depend on the processing

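Of 770 values of the members under an alternative, 730 kept their direction and side of the threshold. Calls of members against wild type all held under DESeq2 1.42.0, other size factors, no expression filter, thinned libraries, a fit of the 2 genotypes alone and leaving out any 1 library. In the FANCJ knockout 2 members were called without a filter and 2 after thinning, with Id2 added. The number of genes called there, 264, became 418 without a filter, 159 with the 2 genotypes alone and 110 to 198 leaving out a library. The members called by the interaction numbered 3 to 5 leaving out a library. Reversed values were close to 0 except for Lefty1 in the double against the DHX36 knockout (-0.24, adjusted p = 0.313, without double knockout library 3; range over left-out libraries -0.24 to 0.41). They were Smad7 in the double against the FANCJ knockout (-0.0160 thinned, and -0.0553 to 0.109 leaving out a library, below 0 without FANCJ knockout library 1 or 3 or double knockout library 2), Id3 in the double knockout against wild type (-0.00142 to 0.0439, below 0 without wild-type library 2 or double knockout library 1) and Tdgf1 in the double against the DHX36 knockout (-0.00659 to 0.0423, below 0 without DHX36 knockout library 1). The cause of each shift was not tested.

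Replicate numbers did not pair the libraries: over 18 pairs with the same number the correlation of deviations was -0.06 to 0.05, and 4 of 12 libraries correlated best with their own number. With the replicate number as a block, 9, 1 and 7 members were called against wild type in the DHX36, FANCJ and double knockouts, and the call of Smad7 in the double against the DHX36 knockout (0.44, adjusted p = 0.0596) was lost, as was that of Inhbb in the DHX36 knockout (0.56, adjusted p = 0.0668). Over all genes the block gave 3004, 233 and 4264 calls against wild type. Among other pathway genes, 499 of 577 values were unchanged in direction and call, 78 lost the call and 0 reversed. Depth limits genes of a few CPM, such as Inhba, Nog and Brip1.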
